A study of Rattus norvegicus with 6 samples.

Results

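Glutathione S-transferases (GSTs) were examined in rat liver through 10 genes of 6 classes, chosen by name: Gsta1, Gsta3 and Gsta4 (alpha), Gstm1, Gstm2 and Gstm3 (mu), Gstp1 (pi), Gstt1 (theta), Gstk1 (kappa) and Mgst1 (microsomal). The current RefSeq symbol of each probe's accession gave 16 probes for these genes, of 61573 probes on the array. All 16 were well above background on all 6 arrays by the scanner's own flag, and 0 were saturated. The flame retardant 2,2-bis(bromomethyl)-1,3-propanediol (BBMP) was given to 3 rats at 1000 mg/kg/day, and 3 control rats received corn oil. All were male Sprague-Dawley rats bought at 5 weeks of age, and each liver was read on 1 single-colour Agilent array. The labels give the exposure both as 28 days and as 9 weeks, which was not resolved here.

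GSTs join the tripeptide glutathione to electrophilic compounds, which makes them more soluble and marks them for export. The cytosolic alpha and mu enzymes are among the abundant proteins of rat liver, and many of their genes respond to xenobiotics through the nuclear receptors CAR and PXR and the transcription factor NRF2. Theta-class enzymes are known for conjugating small halogenated alkanes, and microsomal enzymes sit in membranes, where some also reduce lipid hydroperoxides. Glutathione conjugates are pumped out of the hepatocyte and trimmed to mercapturates.

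None of the 10 GST mRNAs passed the test between BBMP and corn oil livers, and with the brightest probe for each gene the largest difference was that of Gstm2, 1.33-fold higher in BBMP livers. As the mean of probes, Gsta3 had a log2 difference of 0.70, above the 0.41 of Gstm2. Across 28112 tested features, limma called 2 (0.00711%) at an adjusted p of 0.05, and 0 of the 10 GST genes. In the fit of 37644 single probes, 0.00531% were called and 0 of the 16 GST probes, whose adjusted p lay between 0.426 and 0.994. By gene, 7 means were higher and 3 lower in BBMP livers, with a median log2 difference of 0.06, against 47.5% higher and a median of -0.01 over all features. The groups did not overlap for 2 of the 16 probes, both higher in BBMP livers, beside 17.4% of all tested probes in either direction and 8.37% in that direction. At an unadjusted p of 0.05 there were again 2 of 16, beside 10.4% of all probes in either direction and 4.66% in that direction, so neither share sets the family apart. The 2 probes were the Gstm2 probe and 1 of the 3 Gsta3 probes.

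BBMP livers shared 1 slide and scan day and corn oil livers a different one, so these cannot be told apart from the treatment. Between 60.1% and 64.4% of probes were well above background per array, and precision is limited by having 3 arrays a group. Corn oil 2 stood farthest from the other livers, with Pearson correlations of 0.986 to 0.991 across features, against 0.989 to 0.992 among the rest. It was the lowest of the 6 arrays for 8 of the 16 GST probes. The Gstm2 and Gsta3 differences are therefore also given without it.

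**Figure D1:**
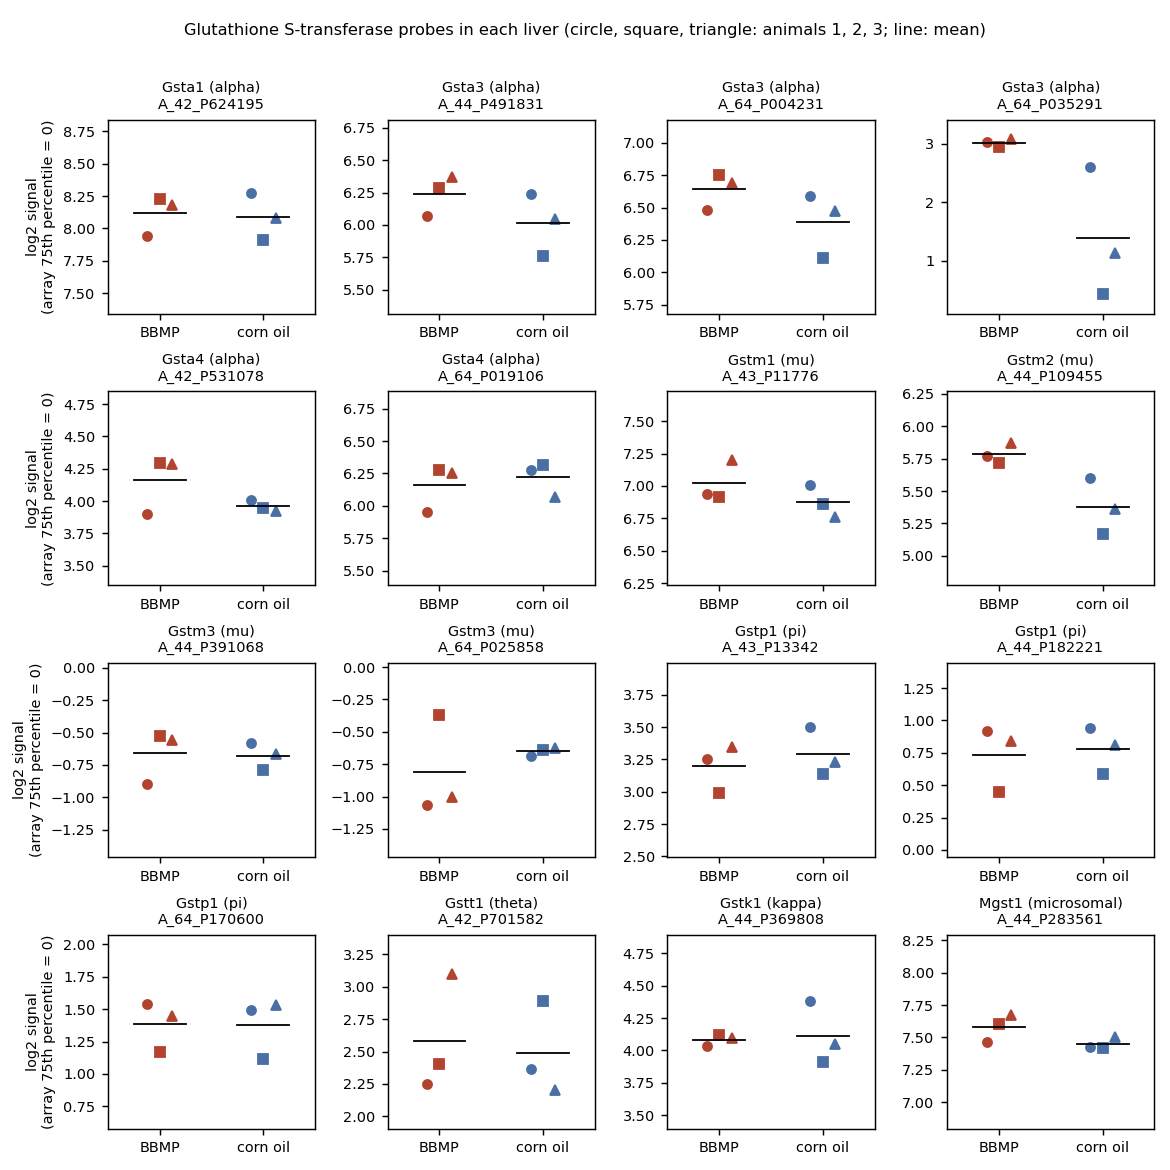
Level of each GST probe in each liver, as log2 signal with the array's 75th percentile at 0, BBMP left and corn oil right. Each panel has its own axis; the groups are apart only for Gstm2 and for the Gsta3 probe A_64_P035291, where corn oil 1 lies at 2.60 and corn oil 2 at 0.43.

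Levels are log2 signals relative to the 75th percentile of the same array, so 1 unit is a doubling, and they are compared between livers for 1 probe at a time. Gsta1, known in older rat work as the Yc1 subunit and conjugating a broad range of electrophiles, stood at 7.94, 8.23 and 8.18 in BBMP livers 1 to 3, against 8.28, 7.91 and 8.08 in corn oil livers. The values interleave. The log2 difference was 0.03 ± 0.14 (SE; limma adjusted p = 0.957), with a 95% interval from 0.81-fold to 1.28-fold.

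Gsta3, the older Yc2 subunit known in rats for conjugating the epoxide of aflatoxin B, gave different answers by probe. Probe A_64_P004231, the brightest, read 6.48, 6.75 and 6.69 in BBMP livers, against 6.59, 6.11 and 6.47 in corn oil livers. Those groups overlap, and the difference was 0.25 ± 0.15 (SE; limma adjusted p = 0.579), and 0.11 without corn oil 2. Probe A_44_P491831 differed by 0.23 ± 0.15 (SE) in the single-probe fit (limma adjusted p = 0.629), and by 0.10 without corn oil 2.

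The remaining Gsta3 probe, A_64_P035291, read 3.03, 2.93 and 3.08 in BBMP livers, against 2.60, 0.43 and 1.13 in corn oil livers. The treated livers lay within 0.15 of each other and above every control, while the controls spanned 2.17. The difference was 1.63 ± 0.51 (SE), a 3.09-fold mean with a 95% interval from 1.32 to 7.27, and did not pass (limma adjusted p = 0.426). Without corn oil 2 it was 1.15 (adjusted p = 0.719), and without corn oil 1 it was 2.24 (adjusted p = 0.228). Probe A_64_P035291 minus A_64_P004231, a difference within each array in which 1 scaling constant per array cancels, was -3.45, -3.82 and -3.61 in BBMP livers, against -3.99, -5.68 and -5.34 in corn oil livers. The gap between the 2 Gsta3 probes was thus smaller in every treated liver, with corn oil 1 close to BBMP 2. Its group difference of 1.38 largely restates the 1.63 of A_64_P035291, so it adds no separate support. Both probes carry the same transcript accession, so which Gsta3 transcript each reads is not given by the files.

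Over the 6 arrays the brighter Gsta3 probes followed the Gsta1 probe with Pearson r of 0.81 and 0.84, and A_64_P035291 with r of 0.53. These are descriptions over 6 livers. Gsta1 and Gsta3 are closely related copies and neighbours in the genome, and probes of such copies can bind each other's transcripts, which was not tested.

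RefSeq gives Gsta3 2 start sites in the rat build GRCr8, and their promoter windows, from 250 bases before to 50 after the start, are shown because the probes of this gene disagree. Capitals mark the core of the antioxidant response element, TGACNNNGC, the site that NRF2 binds with small MAF proteins. The upstream window lies at chr9:31154739-31155038 and the downstream window at chr9:31166793-31167092, both on the plus strand. The core is 17 bases before the upstream start and is not in the downstream window.
Gsta3 upstream window: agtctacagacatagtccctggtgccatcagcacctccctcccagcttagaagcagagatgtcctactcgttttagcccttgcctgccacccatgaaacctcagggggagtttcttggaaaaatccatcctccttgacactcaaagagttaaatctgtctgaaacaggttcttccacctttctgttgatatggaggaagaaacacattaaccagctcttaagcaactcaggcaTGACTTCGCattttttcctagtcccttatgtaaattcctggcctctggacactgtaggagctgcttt
Gsta3 downstream window: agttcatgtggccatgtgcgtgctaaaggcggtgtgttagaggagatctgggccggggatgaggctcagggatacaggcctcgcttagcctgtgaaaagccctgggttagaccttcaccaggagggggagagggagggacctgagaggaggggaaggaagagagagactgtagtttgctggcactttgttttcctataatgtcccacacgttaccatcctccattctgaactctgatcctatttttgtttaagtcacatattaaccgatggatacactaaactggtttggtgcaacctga

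Searched on both strands, the core was in 12.1% of 33469 RefSeq promoter windows of this length. Promoter windows were matched for 9 of the 10 genes, all but Gstt1, and Gsta1, Gsta3 and Gstp1 held the core. It is 30 bases after the start in Gsta1, and 17 and 61 bases before it in Gsta3 and Gstp1. The stretches around these 3 cores are shown because the genes carry the same core and their main probes all had overlapping groups. For the Gsta3 probe A_64_P035291 the groups did not overlap. The stretches lie at chr9:31216483-31216518 (minus strand), chr9:31154956-31154996 (plus strand) and chr1:210769742-210769782 (minus strand).
Gsta1 element: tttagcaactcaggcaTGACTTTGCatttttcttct
Gsta3 element: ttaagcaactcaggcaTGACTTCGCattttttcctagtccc
Gstp1 element: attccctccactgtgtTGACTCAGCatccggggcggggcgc
Compared base by base from the left, Gsta1 and Gsta3 match at 29 of 36 bases. In Gstp1 the core overlaps a match to the AP-1 site TGANTCA, 61 bases before the start; that motif was in 7.33% of all windows and also in that of Mgst1. The core of the xenobiotic response element of the aryl hydrocarbon receptor, GCGTG, was in 29.7% of all windows and in windows of Gsta3, Gsta4 and Gstp1. These letters are descriptions of sequence only.

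Gsta4 conjugates 4-hydroxynonenal and other aldehydes from lipid peroxidation. Its main probe, A_64_P019106, read 5.95, 6.28 and 6.26 in BBMP livers, against 6.28, 6.32 and 6.07 in corn oil livers. The difference was -0.06 ± 0.13 (SE; limma adjusted p = 0.890). Its other probe, A_42_P531078, differed by 0.20 ± 0.13 (SE; limma adjusted p = 0.617) with BBMP 1, at 3.90, below all controls and the other treated livers, at 4.30 and 4.28, above them. The sign of Gsta4 therefore depends on the probe, and the second probe was 0.33 without BBMP 1 and 0.13 without BBMP 2.

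Gstm2, the Yb2 subunit of older rat work and a mu-class enzyme of broad specificity, had the smallest p of the 10 genes. It read 5.77, 5.72 and 5.87 in BBMP livers, against 5.60, 5.17 and 5.36 in corn oil livers. Every treated liver was above every control, with corn oil 1 the nearest. The difference was 0.41 ± 0.13 (SE), or 1.33-fold with a 95% interval from 1.06 to 1.66, and did not pass (limma adjusted p = 0.411). Without corn oil 2 it was 0.30 (adjusted p = 0.725), and with normexp background correction it was 0.22 (adjusted p = 0.561).

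The promoter window of Gstm2 is shown because its groups did not overlap. It lies at chr2:198316868-198317167 on the minus strand of GRCr8 and holds no match to the 3 motifs searched, so all of its letters are in lower case.
Gstm2 window: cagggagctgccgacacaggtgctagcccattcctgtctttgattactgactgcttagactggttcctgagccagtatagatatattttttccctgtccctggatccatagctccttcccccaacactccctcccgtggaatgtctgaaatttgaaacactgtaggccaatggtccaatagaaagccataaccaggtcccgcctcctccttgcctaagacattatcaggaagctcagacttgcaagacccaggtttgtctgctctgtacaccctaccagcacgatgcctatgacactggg

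Gstm1, the Yb1 subunit and a mu-class enzyme that conjugates epoxides among other substrates, read 6.94, 6.92 and 7.20 in BBMP livers, against 7.01, 6.86 and 6.76 in corn oil livers. BBMP 3 was the highest of the 6, and the other livers interleave. The difference was 0.14 ± 0.12 (SE; limma adjusted p = 0.702). Gstm3, another mu-class gene, read -0.89, -0.53 and -0.55 in BBMP livers, against -0.58, -0.79 and -0.67 in corn oil livers with its main probe, A_44_P391068. The groups overlap, and the difference was 0.02 ± 0.13 (SE; limma adjusted p = 0.969). Its other probe, A_64_P025858, differed by -0.16 ± 0.19 (SE; limma adjusted p = 0.785), and its treated livers, at -1.07, -0.37 and -1.01, lay on both sides of the controls.

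Gstp1 is low in normal adult rat hepatocytes, is made in bile duct cells and marks preneoplastic foci in rat liver. Its main probe, A_43_P13342, read 3.25, 2.99 and 3.35 in BBMP livers, against 3.50, 3.13 and 3.23 in corn oil livers. Here the groups overlap, with corn oil 1 the highest and BBMP 2 the lowest. The difference was -0.09 ± 0.15 (SE; limma adjusted p = 0.842), with an interval from 0.73-fold to 1.20-fold, and the other Gstp1 probes differed by -0.04 and 0.00.

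Summed signals of bile duct markers, of which 7 of 10 were tested, ranged from 1.20 to 1.29 on the log2 scale in BBMP livers, against 1.05 to 1.23 in corn oil livers. Sox9 and Cldn7 were among the markers not tested. In whole liver, fewer cells of a type and less RNA per cell cannot be told apart. Hepatocyte markers, all 8 tested, summed to between 12.33 and 12.52 in BBMP livers, against 12.49 to 12.57 in corn oil livers. Of these 8, 3 had higher means in BBMP livers. The groups did not overlap for 3, beside 17.8% of all features. Cps1 was higher, by 0.49 log2 units, and Fgb and Serpina1 were lower, at -0.25 and -0.18. Of 7 marker lists for liver cell types, stellate cell and fibroblast markers (8 of 8 tested) alone had sums without overlap. The sums were 4.78 to 5.01 in BBMP livers, against 5.14 to 5.34 in corn oil livers. Of these 8 markers 2 were higher in BBMP livers, Des by 0.18 and Dcn by 0.17 log2 units. The groups of 4 stellate markers did not overlap: Des, higher in BBMP livers, and Reln, Lrat and Pdgfrb, lower. Col3a1, the brightest of the 8, weighs most in the sums, and its own groups overlapped. Kupffer cell and macrophage markers were higher in BBMP livers for all 7 tested of 8, beside 47.5% of all features. Their median log2 difference was 0.34, with 0 past the adjusted p. The groups overlapped for each of the 7. Among the controls each was highest in corn oil 3, so the 7 are not separate observations. The sums of these markers overlapped, at 6.11 to 6.48 in BBMP livers, against 5.71 to 6.46 in corn oil livers. The part of these markers in the Gstm2 and Gsta3 values was not tested.

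Gstt1, the theta-class enzyme whose substrates include dihalomethanes, varied most among the main probes within the treated group. It read 2.25, 2.40 and 3.10 in BBMP livers, against 2.37, 2.89 and 2.20 in corn oil livers. BBMP 3 and corn oil 2 were high and the other 4 livers low. The difference was 0.10 ± 0.28 (SE; limma adjusted p = 0.919), with a 95% interval from 0.67-fold to 1.70-fold.

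Gstk1, an enzyme of mitochondria and peroxisomes, read 4.03, 4.12 and 4.10 in BBMP livers, against 4.38, 3.91 and 4.05 in corn oil livers. Treated livers lay inside the range of the controls, and the difference was -0.03 ± 0.14 (SE; limma adjusted p = 0.948). Mgst1, the main microsomal enzyme of liver, read 7.47, 7.60 and 7.67 in BBMP livers, against 7.42, 7.42 and 7.50 in corn oil livers. BBMP 1 lay below corn oil 3, and the difference was 0.13 ± 0.10 (SE; limma adjusted p = 0.644). The interval for Mgst1 was the narrowest of the 16 probes, from 0.93-fold to 1.29-fold.

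**Figure D2:**
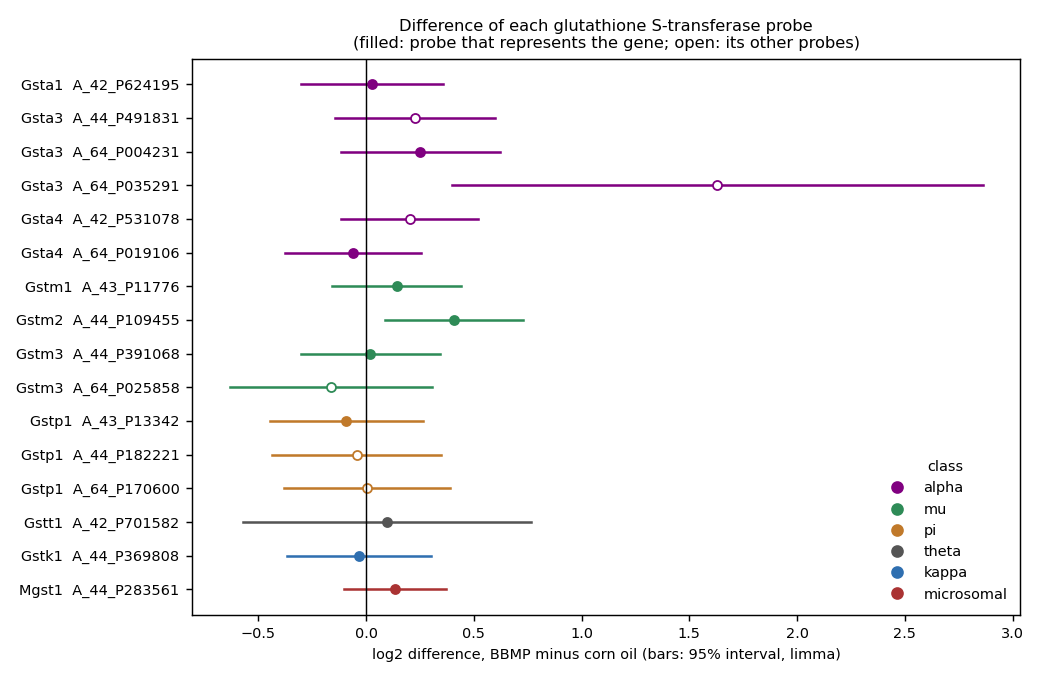
Log2 difference of each of the 16 GST probes, BBMP minus corn oil, with the 95% interval from limma and coloured by class; filled points are the probes that represent a gene. The interval holds 0 for 14 probes, and lies above 0 for Gstm2 (0.41) and for the Gsta3 probe A_64_P035291 (1.63).

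The intervals of the other 14 probes differed in width. The lowest bound was 0.645-fold, for the Gstm3 probe A_64_P025858, and the highest was 1.70-fold, for Gstt1.

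Among the other glutathione transferases, 17 of 21 listed genes were tested, 10 higher and 7 lower in BBMP livers, with 0 past limma's adjusted p of 0.05 and a median log2 difference of 0.08. Gstm4, next to Gstm1, and Gstm7, farther along the same mu-class cluster, differed by 0.22 ± 0.10 and 0.28 ± 0.14 (SE; limma adjusted p = 0.490 and 0.518). Gstm4 read 1.68, 1.86 and 1.81 in BBMP livers, against 1.65, 1.55 and 1.47 in corn oil livers, without overlap and with BBMP 1 only just above corn oil 1. Gstm6 of the same cluster differed by -0.24 ± 0.32 (SE; limma adjusted p = 0.804), and by 0.03 without corn oil 1. Gstm5, named after its values were seen, differed by 0.16 ± 0.50 (SE; limma adjusted p = 0.928), so with the brightest probes Gstm6 alone of the tested genes in the cluster had a lower mean in BBMP livers. As the mean of its probes Gstm3 was also lower, at -0.07. Gstm7 was 0.17 without BBMP 2. Gstp3, the neighbour of Gstp1, had the smallest p of the list. It read 6.81, 6.20 and 7.09 in BBMP livers, against 7.25, 7.42 and 7.08 in corn oil livers, with BBMP 3 just above corn oil 3, and differed by -0.55 ± 0.24 (SE; limma adjusted p = 0.473), or -0.30 without BBMP 2.

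Mgst2, which can make leukotriene C, differed by 0.48 ± 0.29 (SE; limma adjusted p = 0.580), with corn oil 2 lowest at 3.66. It was 0.23 without corn oil 2 and 0.79 without corn oil 1. Mgst3 differed by 0.14 ± 0.18 (SE; limma adjusted p = 0.798). Hpgds, the haematopoietic prostaglandin D synthase, ranged from -1.05 in BBMP 2 to 0.31 in BBMP 3, against -0.81 to -0.63 in corn oil livers. Its difference of 0.36 was 0.03 without BBMP 3 and 0.71 without BBMP 2. Ptges, a prostaglandin E synthase well above background on 4 of the 6 arrays, lay at -4.99 to -4.91 in BBMP livers and -6.11 to -4.92 in corn oil livers. In corn oil 2 and 3 it read -5.23 and -6.11, below those arrays' lowest well-above-background levels of -4.89 and -5.40. Ptges was therefore tested only through the BBMP group, where it is higher. Its higher mean, counted among the 10 of this list, is thus no separate result. Its difference of 0.48 was 0.0020 with normexp, 0.13 without corn oil 3 and 0.73 without corn oil 1.

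Gsta2 and Gsta5, alpha-class genes next to Gsta4, are named after their values were seen, because corn oil 2 stood apart from the other 5 livers. Gsta2 read 7.00, 7.76 and 7.49 in BBMP livers, against 7.08, 8.74 and 7.13 in corn oil livers. Gsta5 read 7.81, 8.31 and 8.24 in BBMP livers, against 7.77, 8.93 and 7.89 in corn oil livers. Corn oil 2 was the highest liver for both genes while it was the lowest for Gsta1 and Gsta3, the alpha-class genes of the other cluster. The mean differences were -0.23 ± 0.47 and -0.08 ± 0.33 (SE; limma adjusted p = 0.883 and 0.947).

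**Figure D3:**
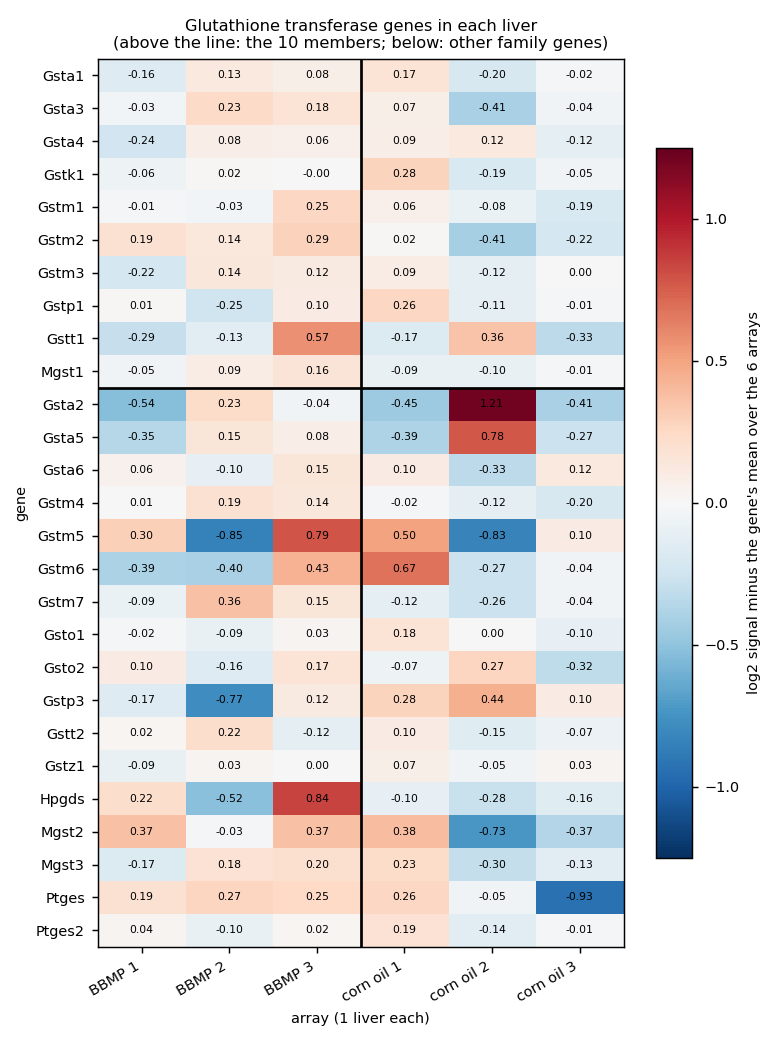
Log2 signal of each tested glutathione transferase gene in each liver minus the gene's mean over the 6 arrays, with BBMP livers left and corn oil livers right, the 10 members above the line. Corn oil 2 is the highest liver for Gsta2 (level 8.74) and Gsta5 (8.93) and the lowest for Gsta3 (6.11) and Gstm2 (5.17).

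By Pearson r over the 6 livers, named genes outside the family most like Gstm2 included Ehhadh (0.992), an enzyme of peroxisomal fatty acid oxidation, RGD1559600 (0.992), the G protein subunit Gna12 (0.987), and Reep6 (0.986), which shapes the endoplasmic reticulum. The livers share treatment, slide and scan within a group, and 49 of 11084 genes compared had an r above 0.95. Ehhadh read 5.41, 5.41 and 5.80 in BBMP livers, against 4.93, 4.05 and 4.43 in corn oil livers. Its difference was 1.075 ± 0.24 (SE), did not pass (limma adjusted p = 0.375), and was 0.87 without corn oil 2. It was picked for its likeness to Gstm2, whose groups did not overlap, so its own separation is not a further result.

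The steps around conjugation were described with lists, in each of which 0 genes passed limma's adjusted p of 0.05. In synthesis and reduction of glutathione 5 of 10 tested genes were higher and 5 lower in BBMP livers. Cth, which makes cysteine by transsulfuration, differed by 0.48 ± 0.22 (SE; limma adjusted p = 0.487), Slc3a2, the heavy chain of the cystine transporter, by -0.13 ± 0.13 (0.749), and Gclm, the modifier subunit of glutamate-cysteine ligase, by 0.21 ± 0.41 (0.874). Without corn oil 2 Cth was 0.26. Gclm read -4.83, -4.71 and -3.45 in BBMP livers, against -4.77, -4.06 and -4.78 in corn oil livers.

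Of the glutathione peroxidases and other glutathione users, 11 of 15 were higher and 4 lower. The persulfide dioxygenase Ethe1 differed by 0.43 ± 0.20 (SE; limma adjusted p = 0.501), the peroxiredoxin Prdx6 by 0.20 ± 0.10 (0.525) and the lipid peroxidase Gpx4 by -0.18 ± 0.11 (0.587). The groups did not overlap for 1 of the 15, Prdx6, which was higher in BBMP livers, beside 17.8% of all features in either direction and 8.23% in that direction. Ethe1 was 0.26 without BBMP 2 and 0.28 without corn oil 1, and Prdx6 was 0.34 with normexp.

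In breakdown of glutathione and mercapturate formation, 7 of 17 tested genes were higher and 10 lower in BBMP livers. The groups did not overlap for 4 of the 17, 1 higher and 3 lower. Over all features the share was 17.8% in either direction, 8.23% higher and 9.6% lower. Nat8, which acetylates cysteine conjugates to mercapturates, read 3.79, 3.97 and 3.95 in BBMP livers, against 4.72, 4.48 and 4.07 in corn oil livers. The difference was -0.52 ± 0.18 (SE; limma adjusted p = 0.422), and its relative Nat8f5 differed by -0.55 ± 0.21 (0.448). Ggt7, of the gamma-glutamyltransferase family, differed by -0.58 ± 0.18 (0.407), and its groups did not overlap. With normexp Ggt7 was -0.12 (adjusted p = 0.787) and Nat8f5 -0.32, and Nat8f5 was -0.34 without corn oil 1.

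Of 8 exporters of conjugates, 3 were higher and 5 lower in BBMP livers, and the median difference was -0.23, against -0.01 over all features. Abcc2, the pump that moves glutathione conjugates into bile, read 5.35, 5.32 and 5.45 in BBMP livers, against 5.76, 5.80 and 5.69 in corn oil livers. Those values do not overlap, and the difference was -0.37 ± 0.09 (SE; limma adjusted p = 0.385). Abcc6, a related transporter, differed by -0.31 ± 0.09 (SE; limma adjusted p = 0.406). The groups did not overlap for 3 of the 8, all lower in BBMP livers, beside 9.6% of all features in that direction.

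The next list had 19 tested genes: transcription factors that act on GST genes, the NRF2 regulator Keap1, and 2 known targets, Nqo1 and Hmox1. Of these, 9 were higher and 10 lower in BBMP livers. Nr1i3, the receptor CAR, differed by 0.74 ± 0.37 (SE; limma adjusted p = 0.511), with 3.82, 3.78 and 3.40 in BBMP livers, against 3.76, 2.32 and 2.68 in corn oil livers. It was 0.44 without corn oil 2 and 1.16 without corn oil 1. Jun, a component of AP-1, differed by -1.11 ± 0.64 (0.559) with corn oil 2 highest at 4.28, and Hmox1, an NRF2 target, by -0.32 ± 0.18 (0.563). Without corn oil 2 Jun was -0.43 and Hmox1 -0.12, without corn oil 1 Jun was -1.70, and with normexp Hmox1 was -0.16.

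**Figure D4:**
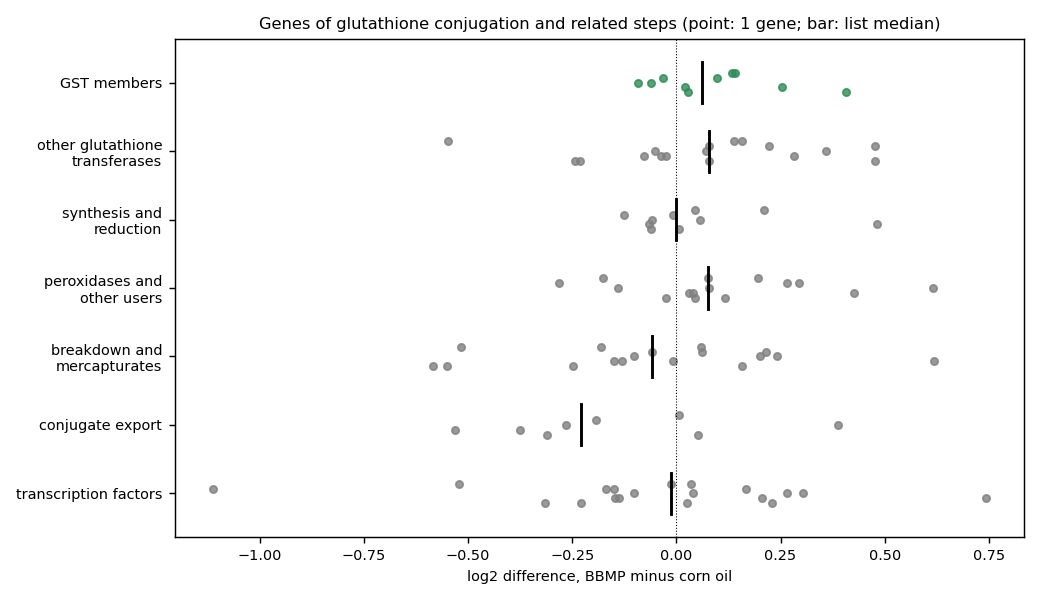
Log2 difference, BBMP minus corn oil, of each tested gene in the GST list and 6 lists around it; bars mark list medians, from -0.23 for conjugate export to 0.08. The 10 GST genes lie between -0.09 and 0.41.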

How the data were processed

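Liver RNA was read on Agilent rat arrays (design 035170, rn4), with 1 array per animal. The deposited scanner files hold linear intensity per spot; per the file headers and the submitters' processing notes, Agilent Feature Extraction 10.7.1.1 subtracted background and removed spatial trends, with no scaling between arrays. The authors' value table is the same intensity divided by 1 constant per array.

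The 1319 control spots, 84 spike-in probes and scanner outlier spots (at most 21 per array) were left out. Accessions were matched without version to the GRCr8 RefSeq table, which named 27460 of 61573 probes (44.6%). The log2 processed signal minus that of each array's 75th percentile was tested with limma 3.58.1 (R 4.3.3, no covariate, two-sided). A feature was tested if well above background on all 3 arrays of a group; a gene's brightest such probe on average represents it. Adjustment was Benjamini-Hochberg over 28112 features, or over 37644 probes where single probes are named. The fit was tested on simulated data of 28112 features: of 200 altered by 1 log2 unit it found 46.5%, and of 200 altered by 2 it found 85.5%.

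Named genes were all members, the 8 other transferases and up to 3 genes per further list with the smallest p, and the 5 genes most correlated with the member of smallest p; some of these are not reported here. The members and lists were chosen with earlier results of these data known. Alternatives were normexp (offset 50, median spot signal), scaling by quantiles or the median, no filter, detection on all 6 arrays, mean of probes, brightest unsaturated probe, the value table, a replicate block and leaving out each array. Whether the rats of a group were housed or dosed separately is not stated. Python 3.11.15 and pandas 2.3.3 made the tables.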

Additional observations from a re-analysis of the deposited data

How the results depend on the processing

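All alternatives were planned. The number of GST genes past the threshold was 0 under each alternative run. The number of features past it was 2; it was 0 with normexp, 0 with the filter on all 6 arrays, 0 with the replicate block and 1 without a filter, and 0 (without corn oil 3) to 4 (without corn oil 2) without 1 array; apart from the fewer features of the stricter filter, the cause was not tested. Unadjusted p was under 0.05 for 3279 features with normexp, 2835 with that filter, 3235 with the block and 3002 without corn oil 3. The number of GST genes higher in BBMP livers was 7, and 4 to 9 without 1 array, 4 without BBMP 3. Their median difference was -0.02 to 0.16 without 1 array, -0.02 without BBMP 3. The replicate numbers are not known to pair the rats. Same-numbered deviations correlated at 0.089, 0.016 and 0.072. BBMP 1 and BBMP 3 correlated best with the corn oil liver of the same number, and BBMP 2 with corn oil 1 (0.029). Each number occurs once in each group, so the block cannot change a difference, only its SE and p. For Gstm2 the SE was 0.13 without the block and 0.12 with it. Under the alternatives 24 values reversed sign, none of them past the threshold, and 629 kept their sign and their side of it. Many of the 629 could not have changed sign. The filter settings, the unsaturated probe and the block left a difference as it was wherever the same probe represented the gene. So did the mean of probes for genes with 1 probe. The count of 629 therefore does not measure how stable the values are. With normexp, Gsta1 was -0.041, Gstk1 0.0010 and Gclm -6.9e-04. As the mean of probes, Gsta4 was 0.071 and Gstm3 -0.072, while Gsta3 kept its sign at 0.70. Leaving out 1 array in turn gave ranges of -0.064 to 0.12 for Gsta1, -0.14 to 0.044 for Gsta4, -0.045 to 0.14 for Gstm3, -0.17 to 0.015 for Gstp1, -0.16 to 0.30 for Gstt1, -0.13 to 0.10 for Gstk1, -0.52 to 0.032 for Gstm6 and -0.23 to 0.46 for Gclm. For the Gstp1 probes A_44_P182221 and A_64_P170600 the ranges were -0.14 to 0.10 and -0.13 to 0.11. Detection limits Ptges, well above background on 4 arrays.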
